A study of Mus musculus with 20 samples.

Results

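The 39 genes described here encode the blood clotting and complement proteins that the liver makes for the plasma. They were taken by symbol from lists of coagulation genes (21) and complement genes (18), by a rule that uses no measured value, out of 55487 gene identifiers in the count table. All 39 were found, and all of them passed the filter on low counts in every comparison. Serping1, the C1 inhibitor, acts in both systems and was counted with coagulation. The coagulation genes fall into the vitamin K-dependent factors (6), the contact system (4), the cofactor and cross-linking subunit (2), the fibrinogen chains (3), fibrinolysis (3) and the serpin inhibitors (3). The complement genes fall into the classical pathway (4), the lectin pathway (4), C3 and the alternative pathway (2), the terminal components (6) and the inhibitors (2).

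Hepatocytes make most of the circulating clotting and complement proteins. In clotting, a chain of serine proteases ends in thrombin, which turns fibrinogen into fibrin, while antithrombin, protein C and plasmin oppose clot growth or dissolve the clot. In complement, the classical, lectin and alternative routes meet at C3, and the terminal components C5 to C9 then assemble into a pore in the target membrane. Several of these genes belong to the acute phase response, in which cytokines such as IL-6 change what hepatocytes secrete.

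Liver RNA was sequenced from 20 female C57BL/6J mice, with 1 library per mouse. The chow group (5 mice) ate chow throughout, and the other 15 mice ate a high-fat diet (HFD) for 10 weeks from 8 weeks of age and then, for another 10 weeks, an HFD in which 50% of the protein came from salmon fishmeal (5 mice), salmon filet (6) or beef (4). All mice were 28 weeks old at the end, and no genotype other than the inbred strain is given. No mice on the unmodified HFD are among these libraries, and chow differed from the HFDs in fat, carbohydrate and protein source together, so that HFD versus chow cannot be assigned to 1 nutrient. In whole liver, a lower level can mean fewer cells of a type or less RNA per cell, and these cannot be told apart.

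The libraries held between 42526234 and 70266136 counted reads. Of these, 93.2% to 95.6% fell on protein coding genes in 19 libraries and 84.3% in mouse 35 (beef). Mouse 31 is labelled salmon filet but its count column is named beef. Column names would give 5 mice in each group, the number that the paper states for sequencing. The label was used here, so every salmon filet and beef result depends on it and may hold a mouse of the other diet. Values with mouse 31 as beef are given beside the calls and the counts of small p-values that they change. The hepatocyte markers summed to between 94030 and 122500 CPM, counts scaled to the normalised total of each library, in all mice, and adipocyte markers to at most 0.114 CPM. The first principal component of 12 circadian clock genes (87.6% of their variance) lay between 1.54 and 4.57 in the chow mice and between -5.80 and 3.45 in the HFD mice, ranges that overlap but lie apart in part.

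Mouse 23 (salmon filet) stood apart in both lists. It had the highest CPM of all 20 mice for 21 of the 39 genes (10 coagulation and 11 complement), whereas it was the highest mouse for 4.86% of the 17120 genes tested in HFD versus chow. Its median ratio to the median of the other 14 HFD mice was 1.415 for coagulation genes and 1.396 for complement genes, with a range from 0.831 for Klkb1 to 4.08 for C8a. Acute phase genes were also high in this mouse: Saa1, a serum amyloid A, was at 1402 CPM against 36.3 to 191.1 in the other HFD mice, and 11 acute phase genes summed to 27390 CPM against at most 14450 in any other mouse. The part of this in the results was not tested, and values without mouse 23 are given beside the results that they change. Mouse 23 was singled out by its values in these same 39 genes. Leaving it out lowers the HFD mean of each gene in which it is high, so adjusted p-values without it are descriptive.

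Levels between genes were compared in TPM, transcript units scaled to gene length and to a common total per library. The fibrinogen chains were the highest coagulation genes. Fga, Fgg and Fgb, which encode the α, γ and β chains, averaged 5713 ± 1248, 4090 ± 907 and 3185 ± 848 TPM (SD, n = 20 mice) and ranked 20, 29 and 39 among all genes. The lowest coagulation genes were F11 (108.5 ± 24.3 TPM), Klkb1, plasma prekallikrein (69.0 ± 7.02 TPM), and Pros1, the protein C cofactor protein S (34.0 ± 4.81 TPM). C3, the component on which all routes converge, was the highest complement gene (6265 ± 1077 TPM, rank 19), followed by the mannose-binding lectin Mbl2 (1645 ± 218 TPM) and the C3b-cleaving protease Cfi (877.5 ± 78.4 TPM). The lowest were Cfb, the alternative pathway protease (29.5 ± 10.2 TPM), C6 (12.0 ± 3.91 TPM) and C2 (9.01 ± 1.222 TPM). Neighbours in this order could overlap: C6 ran from 5.69 to 22.6 TPM and C2 from 7.28 to 12.0 TPM, and Fga from 4323 and Fgg up to 7345 TPM. Levels of Cfb and C2 are uncertain. Of their exonic bases, only 20.5% and 57.2% lie in no exon of another gene on the same strand. Genes on the opposite strand were not considered in these shares, and it is not given how reads shared between genes were counted. The same holds for Klkb1 (56.8%).

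**Figure D1:**
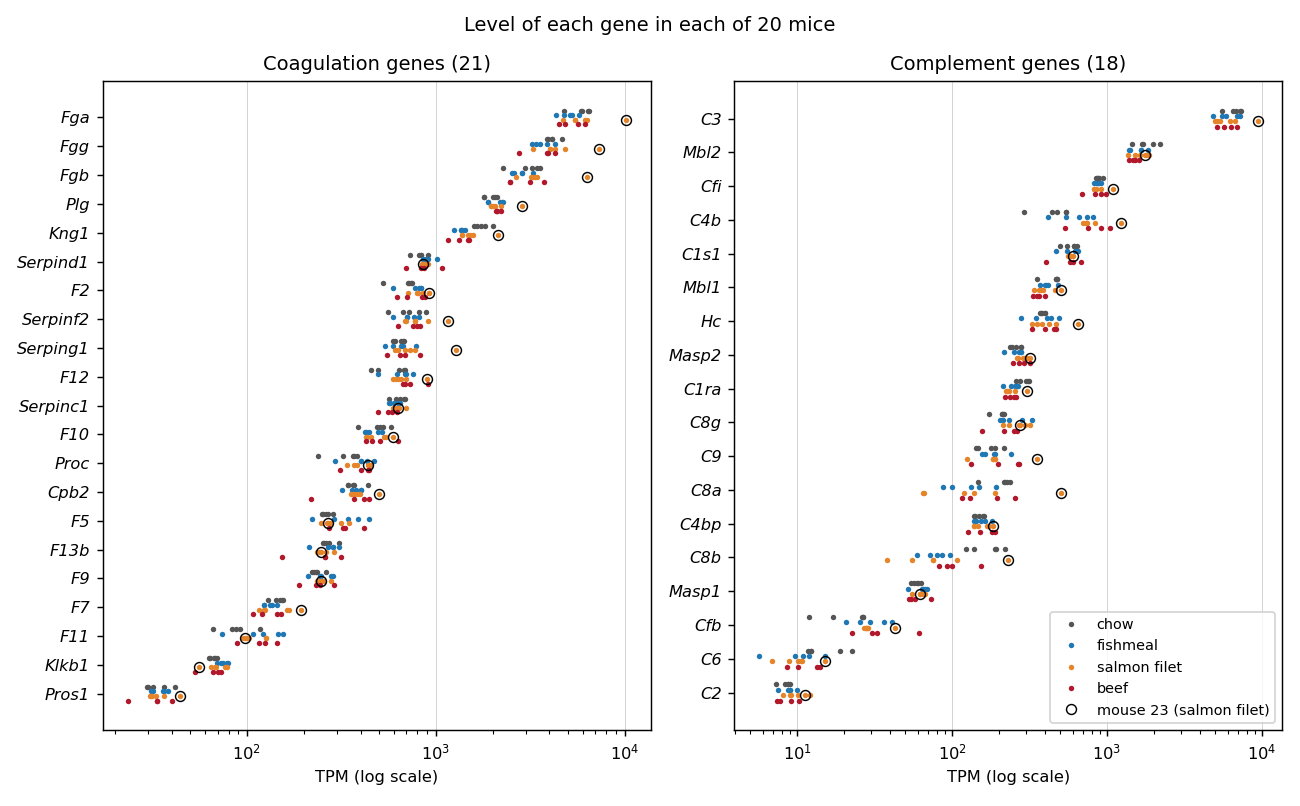
Level of each coagulation gene (left) and complement gene (right) in TPM on a log axis, 1 point per mouse coloured by diet, with mouse 23 circled. Fga and C3 lie at the top of their lists at means of 5713 and 6265 TPM, Pros1 and C2 at the bottom at 34.0 and 9.01 TPM, and mouse 23 lies apart from the other mice for the fibrinogen chains and C8a.

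Together the coagulation genes made up 2.33 ± 0.18% of TPM in chow mice (n = 5) and 2.34 ± 0.42% in HFD mice (n = 15), or 2.24 ± 0.18% in the 14 HFD mice without mouse 23. Complement genes made up 1.28 ± 0.10% in chow mice and 1.226 ± 0.173% in HFD mice, or 1.19 ± 0.10% without mouse 23. These shares differed between diets by less than their SD.

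The spread between mice differed by gene. Across the 15 HFD mice the coefficient of variation of CPM was 69.8% for C8a and 52.2% for C8b, which encode the α and β chains of C8, and 6.71% for the lectin pathway protease Masp1. Without mouse 23, C8a had 42.0%, C8b 35.6% and Cfb 38.5%. In the 5 chow mice C8a and C8b had 17.8% and 22.9%.

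Some of the genes lie side by side in the genome (GRCm38, GENCODE M21). Fgg, Fga and Fgb lie on chr3 between 83007724 and 83049863, with gaps of 11026 and 6513 bases. C8b (chr4:104766317-104804548, plus strand) and C8a (chr4:104815679-104876398, minus strand) lie on chr4 with their 3′ ends 11130 bases apart. F7 and F10 on chr8 are separated by 1498 bases, F11 and Klkb1 on chr8 by 4657, C1ra and C1s1 on chr6 by 6901, and Cfb and C2 on chr17 by 85. C8g, the gene of the remaining C8 chain, lies on chr2.

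The 120 bases before the gene start are shown for the fibrinogen chains and for C8a and C8b, since the levels of these genes moved together between mice, as described further on. The sequences are from RefSeq (GRCm38.p6), read 5′ to 3′ on the strand of the gene. Capitals mark the letters CTGGGA (core of the IL-6 response element of acute phase genes) and TTGCNNAA (a C/EBP motif), each on either strand. For Fga the stretch ends at the GENCODE start, and the RefSeq start lies 77 bases further downstream.
Fgg, chr3:83007604-83007723, strand plus: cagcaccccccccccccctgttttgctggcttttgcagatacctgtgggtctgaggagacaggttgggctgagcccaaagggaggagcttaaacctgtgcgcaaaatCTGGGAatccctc
Fga, chr3:83025956-83026075, strand plus: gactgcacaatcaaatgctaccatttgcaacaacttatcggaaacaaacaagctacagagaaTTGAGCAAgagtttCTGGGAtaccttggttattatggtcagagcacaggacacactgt
Fgb, chr3:83049864-83049983, strand minus: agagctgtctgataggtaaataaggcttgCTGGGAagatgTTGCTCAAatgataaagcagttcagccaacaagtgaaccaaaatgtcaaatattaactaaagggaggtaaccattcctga
C8b, chr4:104766197-104766316, strand plus: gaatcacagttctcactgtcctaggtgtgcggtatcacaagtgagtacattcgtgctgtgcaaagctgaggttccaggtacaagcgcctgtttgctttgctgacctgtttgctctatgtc
C8a, chr4:104876399-104876518, strand minus: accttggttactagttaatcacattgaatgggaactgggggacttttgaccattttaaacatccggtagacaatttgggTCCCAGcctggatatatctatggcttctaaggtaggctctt

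CTGGGA was present in all 3 fibrinogen stretches and in that of C8a, whereas none of these motifs was present in that of C8b. Over 300 bases around the start (250 before and 50 after), a promoter was matched for 30 of the 39 genes. CTGGGA was found in 10 of 17 coagulation and 7 of 13 complement promoters, against 31.5% of 27025 promoters. TTGCNNAA was found in 7 of 17 and 4 of 13, against 10.8%. TATAAA, the TATA box, was found in 1 of 17 and 2 of 13, against 14.2%. Matches describe letters in these windows and are not evidence of binding.

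HFD versus chow asks how the obesity-inducing diets, whatever their protein, compare with the healthy reference. With edgeR's quasi-likelihood test at an adjusted p under 0.05, 9.75% of the 17120 genes tested were called. Among the coagulation genes 1 of 21 was called, F11, which was higher, and among the complement genes 1 of 18, C4b, which was higher. DESeq2 called 12.6% of all genes, with 1 coagulation and 3 complement genes. By edgeR both shares lay under the background. The median log2 fold change was 0.12 for coagulation genes, 0.09 for complement genes and 0.01 for all genes tested. At an unadjusted edgeR p under 0.05 stood 4 of 21 coagulation and 6 of 18 complement genes, against 4174 of all 17120 genes tested.

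C4b (chr17:34728380-34743882, minus strand) encodes C4, the substrate of the classical and lectin proteases. Its levels in chow mice were 655, 975, 1263, 945 and 1204 CPM. In the HFD mice they ran from 966 through a median of 1591 to 2941 CPM. C4b rose 1.73-fold (log2 fold change 0.79, SE 0.20, edgeR adjusted p = 0.0145), and 14 of 15 HFD mice were above the chow mean. The groups overlapped, through mouse 16 (fishmeal) and mouse 32 (beef). Without mouse 23 the log2 fold change was 0.72 (adjusted p = 0.0132), and without chow mouse 1, the lowest, it was 0.67 (adjusted p = 0.0638). C4a, a copy of C4b that is 95.9% identical over 5378 bases, had 493 counts per library on average against 85863 for C4b, and reads shared between them could have been split.

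F11 (chr8:45241174-45262031, minus strand) encodes factor XI, a contact system zymogen that activates factor IX. Chow mice had 58.5, 74.5, 106.6, 69.3 and 76.7 CPM, and HFD mice 79.96 to 136.1 CPM with a median of 99.8. F11 rose 1.33-fold (log2 fold change 0.41, SE 0.13, edgeR adjusted p = 0.0487), with 15 of 15 HFD mice above the chow mean. Chow mouse 5 lay inside the HFD range. The call rested on single mice: F11 passed in 8 of the 20 fits that left out 1 mouse, and without chow mouse 1 its adjusted p was 0.179.

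The other coagulation genes did not pass. Among the vitamin K-dependent factors, the log2 fold changes were 0.31 for Proc (protein C, adjusted p = 0.109), 0.26 for F2 (prothrombin, adjusted p = 0.148) and between -0.02 and 0.12 for F7, F9, F10 and Pros1. In the contact system, F12 (factor XII) had 0.29, Klkb1 0.12 and Kng1, which encodes the kininogens, -0.23 (adjusted p = 0.217). Without mouse 23 Kng1 fell by 0.29 on the log2 scale (SE 0.08, adjusted p = 0.0334). Of Kng1's transcripts, 2256 bases are 91.1% identical to Kng2, which had 18760 counts per library against 110136, and how shared reads were counted is not given. F5, the factor V cofactor of thrombin formation, had 0.30 (adjusted p = 0.115), and F13b, the carrier subunit of the fibrin cross-linking enzyme, -0.03.

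No fibrinogen chain was called. The fold changes were -0.01 for Fga, 0.11 for Fgb and 0.02 for Fgg on the log2 scale, with SEs of 0.15, 0.17 and 0.15. Fga had 6830 ± 771 CPM in chow mice and 6385 ± 662 CPM in the 14 HFD mice without mouse 23, which had 12862 CPM. The fibrinolysis genes Plg (plasminogen), Cpb2 (a carboxypeptidase that protects fibrin) and Serpinf2 (α2-antiplasmin) had log2 fold changes of 0.18, 0.08 and 0.14. The serpin inhibitors Serpinc1 (antithrombin), Serpind1 (heparin cofactor II) and Serping1 had -0.02, 0.15 and 0.19. The lowest adjusted p among the fibrinogen, fibrinolysis and inhibitor genes was 0.275, for Plg.

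In complement, the lowest fold changes belonged to terminal components (C8b, C6 and C8a) and the highest to C4b and Cfb. C8b had 195, 200.5, 197, 117 and 139 CPM in chow mice, and 36.9 to 244 CPM with a median of 87.8 in HFD mice, a difference of -0.82 on the log2 scale (SE 0.27, adjusted p = 0.0589). The 244 CPM was mouse 23, and without it C8b fell by 0.98 on the log2 scale (SE 0.21, adjusted p = 0.00516). C6, which binds C5b at the start of pore assembly, had -0.49 (adjusted p = 0.0748), and without mouse 23 it fell by 0.54 (adjusted p = 0.0394). C8a had -0.29 (SE 0.34, adjusted p = 0.649) with mouse 23 and -0.54 (SE 0.25, adjusted p = 0.182) without. C8g had 0.35 (adjusted p = 0.132), C9, the pore-forming component, 0.27 (adjusted p = 0.421) and Hc, the gene of C5, 0.16 (adjusted p = 0.498). C8g overlaps Fbxw5 on the opposite strand over 970 bases, and it is not given whether strand was used in counting.

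Cfb was higher than the chow mean in 15 of 15 HFD mice, by 0.63 on the log2 scale (SE 0.23, adjusted p = 0.0825), and DESeq2 put it past the threshold (adjusted p = 0.0378). The groups overlapped: mice 16, 22, 26, 27 and 32 had between 23.7 and 29.8 CPM, and chow mice up to 30.4 CPM. The highest Cfb value, 79.7 CPM, came from mouse 35, whose library has the low protein coding share. C3 had -0.06 (SE 0.13). The classical pathway proteases C1ra, C1s1 and C2 had -0.20 (adjusted p = 0.136), 0.04 and 0.19, and without mouse 23 C1ra fell by 0.23 (adjusted p = 0.0422). The lectin pathway genes Mbl1, Mbl2, Masp1 and Masp2 had between -0.12 and 0.14, and the inhibitors Cfi and C4bp 0.05 and 0.13.

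Without mouse 23, 2 coagulation genes (F11 higher, Kng1 lower) and 4 complement genes (C4b higher, C8b, C6 and C1ra lower) were called in HFD versus chow, against a background that was again 9.75%. Kng1, C6 and C1ra each passed in 1 of the 20 fits that left out 1 mouse, and C8b in 2. Without mouse 35 the calls numbered 1 and 1, against 1725 of 17092 genes. Without chow mouse 1 there were 0 and 0, against 986 of 17305 genes. At an unadjusted edgeR p under 0.05 there were then 4 and 3, against 3265 of 17305 genes. With the clock component as a covariate, 1.7% of all genes and none of the 39 were called, and the log2 fold changes of C4b and F11 were 0.44 and 0.12.

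**Figure D2:**
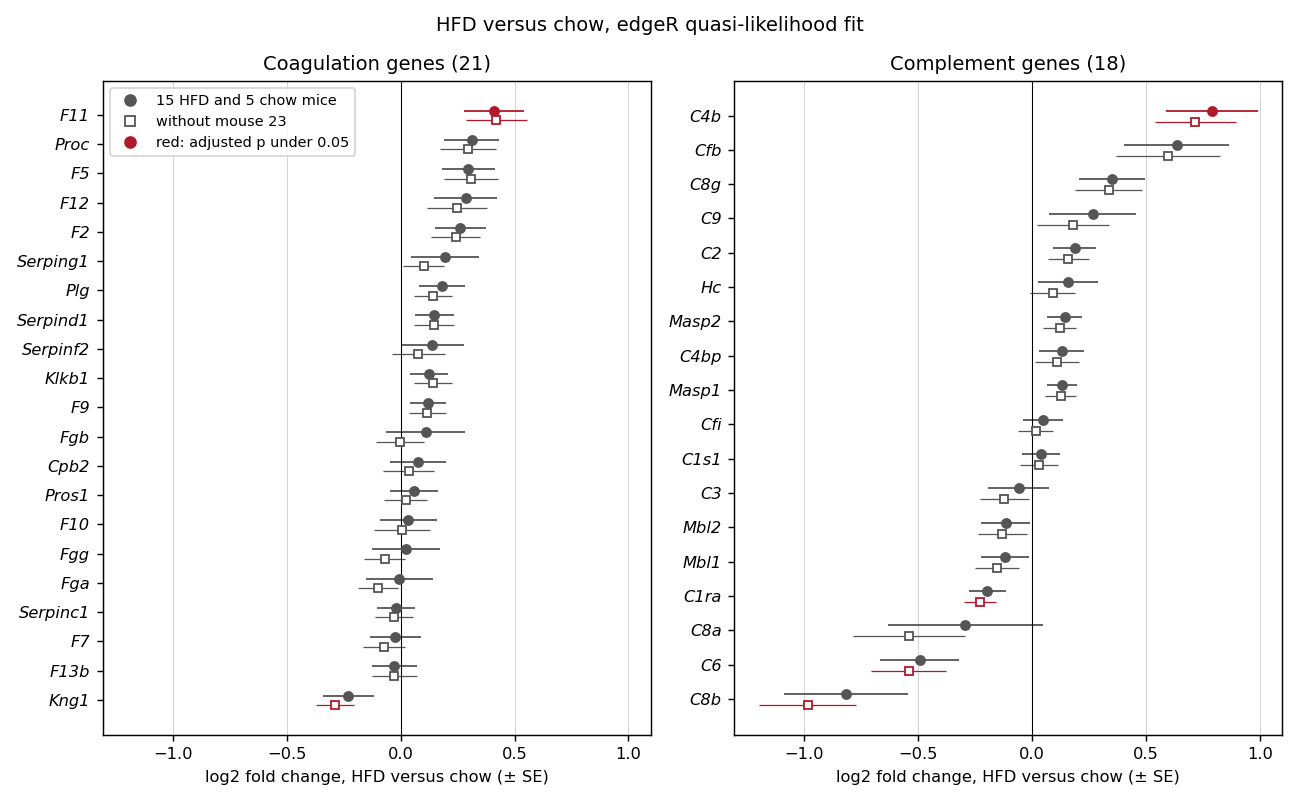
Log2 fold change of each gene in HFD versus chow with its SE, for coagulation (left) and complement (right) genes. Filled circles are the fit on 20 mice and open squares the fit without mouse 23; red marks an adjusted p under 0.05, which holds for F11 and C4b in both fits and for Kng1, C1ra, C6 and C8b in the fit without mouse 23.

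Each HFD group was then compared with the same 5 chow mice, so that these comparisons share their controls. In fishmeal versus chow 3.38% of 16471 genes were called, with 0 of 21 coagulation and 1 of 18 complement genes. DESeq2 called 0 and 2 of them (7.14% of all genes). With an unadjusted edgeR p under 0.05 there were 4 and 6, against 2778 of all 16471 genes. C8b fell 2.11-fold (log2 fold change -1.08, SE 0.18, edgeR adjusted p = 0.0062). The fishmeal mice had 87.8, 76.0, 95.3, 88.3 and 56.4 CPM, all under the lowest chow mouse (117 CPM), while 5.91% of all genes had no overlap in this comparison. Leaving out any 1 of the 10 mice kept C8b past the threshold, which did not hold when all 4 groups were fitted together (adjusted p = 0.0885). C8a had -0.62 (SE 0.19, adjusted p = 0.0967), with 153, 202, 269, 196 and 136 CPM against 201 to 325 CPM in chow mice.

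In salmon filet versus chow 4.46% of 16605 genes were called, with 0 of 21 coagulation and 1 of 18 complement genes. DESeq2 called 0 and 2 (8.96% of all genes). With an unadjusted edgeR p under 0.05 there were 1 and 5 (2 and 5 with mouse 31 as beef), against 3574 of all 16605 genes (3917 of 16475). C4b rose 1.83-fold (log2 fold change 0.88, SE 0.20, edgeR adjusted p = 0.029). The 6 mice had 1763, 2941, 1715, 1583, 1581 and 1530 CPM, all above the highest chow mouse (1263 CPM), against 4.94% of all genes without overlap. C8b had 71.3, 244, 57.3, 105, 36.9 and 73.7 CPM, of which 5 lay under every chow mouse and mouse 23 above them all. Its log2 fold change was -0.80 (SE 0.38, adjusted p = 0.249) with mouse 23 and -1.31 (SE 0.24, adjusted p = 0.0134) without it. Without mouse 23 3.54% of all genes were called, and among the complement genes C4b (0.69), C8b and C1ra (-0.33, adjusted p = 0.0402). Without chow mouse 1, 2 or 7 none of the 39 was called, and without mouse 1 490 of 16720 genes were. C8g, at 0.41 (adjusted p = 0.0564), passed with mouse 31 as beef (0.44, adjusted p = 0.0466, 4.42% of all genes called).

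In beef versus chow 2.48% of 16559 genes were called by edgeR, with 0 of 21 coagulation and 0 of 18 complement genes. DESeq2 called 1 (F5) and 1 (C4b) and 6.79% of all genes. With an unadjusted edgeR p under 0.05 there were 4 and 3 (4 and 4 with mouse 31 as beef), against 2953 of all 16559 genes (2999 of 16339). F5 had 1193, 938, 959 and 1006 CPM in beef against 670.5 to 865.5 CPM in chow, without overlap (log2 fold change 0.43, SE 0.12, adjusted p = 0.086). Groups without overlap were found for 8.22% of all genes in this comparison. C4b had 0.95 (SE 0.24, adjusted p = 0.0681), with 1167, 2763, 1696 and 2176 CPM. The 2763 CPM was mouse 35, whose library has the low protein coding share. Without mouse 35 the highest log2 fold change among the complement genes was 0.73, and their lowest edgeR adjusted p was 0.145. C8b had -0.58 (SE 0.22, adjusted p = 0.202), and C8a -0.14 (SE 0.25, adjusted p = 0.809). With mouse 31 as beef, 3.05% of genes and none of the 39 were called.

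**Figure D3:**
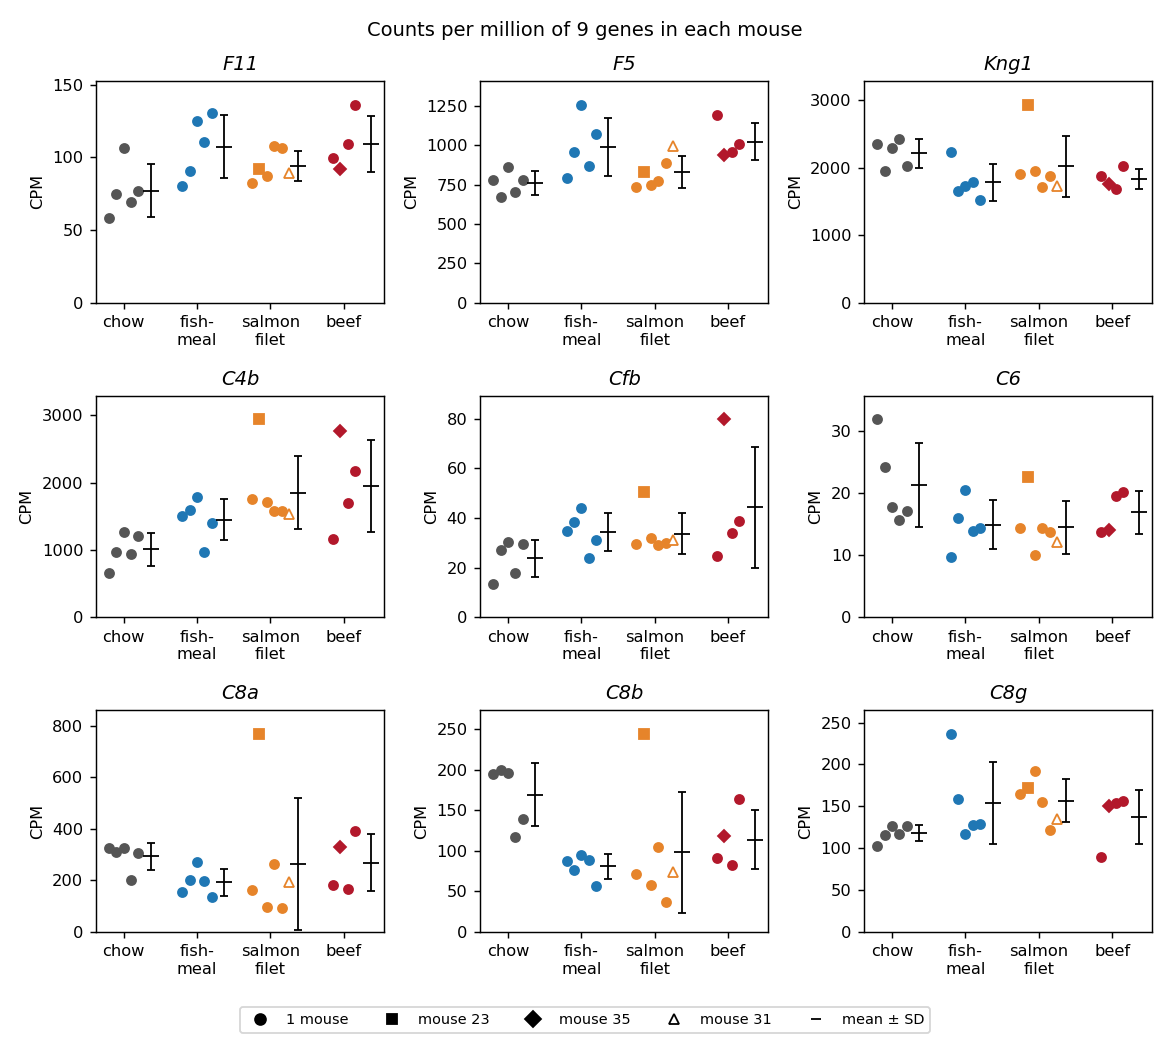
CPM of 9 genes in each mouse by diet, on axes from 0, with the mean ± SD of each group beside its points; squares are mouse 23, diamonds mouse 35 and open triangles mouse 31. For C8b the fishmeal mice lie between 56.4 and 95.3 CPM, under the chow mice at 117 to 200.5 CPM, and for C4b every salmon filet mouse lies above the chow mice.

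Comparing the HFD groups with each other asks whether the diets with different sources of protein differed in effect. By the paper's diet table these diets also differed in cholesterol, added soybean oil and fatty acids. A difference between them can therefore not be assigned to protein alone. No coagulation or complement gene was called by edgeR or DESeq2 in fishmeal versus salmon filet (background 0.157% by edgeR and 0.496% by DESeq2), fishmeal versus beef (0.00607% and 0.176%) or salmon filet versus beef (0% and 0.0121%). At an unadjusted p under 0.05 stood C8b in fishmeal versus beef (log2 fold change -0.50, SE 0.21, edgeR adjusted p = 1.0) and F5 in salmon filet versus beef (-0.31, SE 0.12), and no gene in fishmeal versus salmon filet. Of all genes, 702 of 16548 did so in fishmeal versus salmon filet, 384 of 16480 in fishmeal versus beef and 613 of 16509 in salmon filet versus beef. The log2 fold changes of the 39 genes lay between -0.44 (C8a) and 0.27 in fishmeal versus salmon filet. They lay between -0.50 and 0.16 in fishmeal versus beef and between -0.40 and 0.25 in salmon filet versus beef. Mouse 23 set the direction for C8 in fishmeal versus salmon filet: C8a had -0.44 (SE 0.47) and C8b -0.27 (SE 0.38) with it, and 0.27 (SE 0.28) and 0.25 (SE 0.23) without it. In salmon filet versus beef, C8a moved from -0.03 (SE 0.54) to -0.73 (SE 0.34) and C8b from -0.22 (SE 0.43) to -0.73 (SE 0.27) without it. Then 2 coagulation and 3 complement genes stood at an unadjusted edgeR p under 0.05, against 681 of 16419 genes. None of the 39 was called there. With mouse 31 as beef, F5 stood at an unadjusted edgeR p of 0.0348 in fishmeal versus salmon filet (0.32), and C8b no longer did so in fishmeal versus beef. With so few genes called anywhere in these comparisons, a missing call does not show that the groups were alike.

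**Figure D4:**
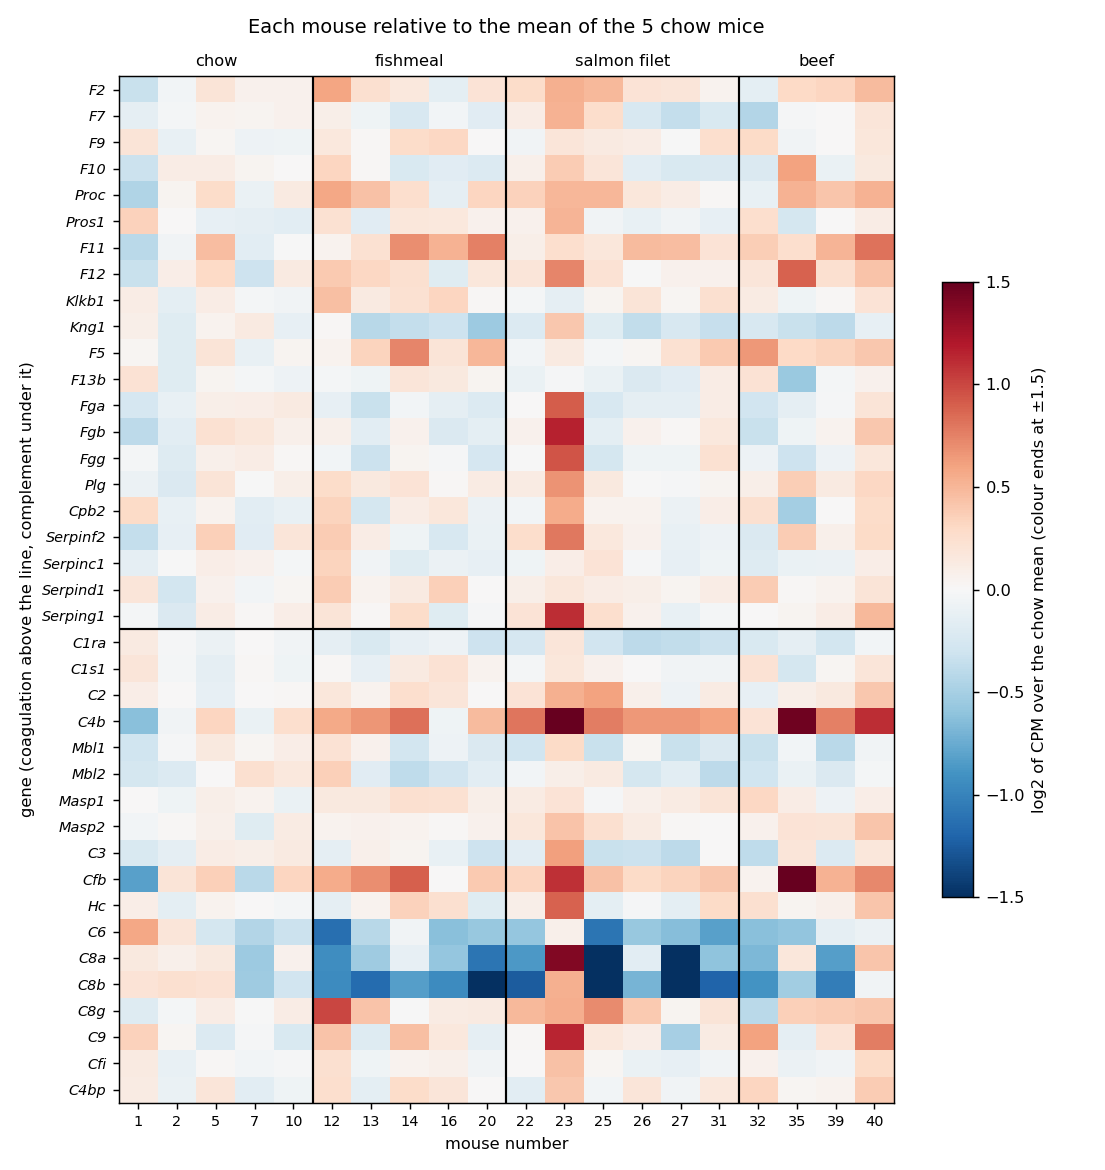
Log2 of CPM in each mouse over the mean of the 5 chow mice, with coagulation genes above and complement genes under the horizontal line and mice grouped by diet. Mouse 23 shows the fibrinogen chains, Serping1, C8a and C9 high, C4b is above the chow mean in 14 of 15 HFD mice, and C8b is under it in 14 of 15.

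Genes whose products form 1 protein or complex were compared across the 15 HFD mice in log2 CPM, over 9 pairs with permutation p-values adjusted over the pairs. Fga and Fgb had a Pearson r of 0.969 (permutation adjusted p = 3e-05) and a Spearman rho of 0.832 (adjusted p = 0.000945). For Fga and Fgg r was 0.955 and for Fgb and Fgg 0.91, with permutation adjusted p-values for r of 3e-05 and 0.000562. C8a and C8b had an r of 0.954 (permutation adjusted p = 3e-05) and a rho of 0.9 (adjusted p = 0.00027). The unadjusted p behind each 3e-05, 1e-05, is the smallest that 100000 permutations can give.

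Each of these 4 pairs kept its direction and its side of the threshold without mouse 23. Then r was 0.873 for Fga and Fgb, 0.822 for Fga and Fgg, 0.659 for Fgb and Fgg and 0.921 for C8a and C8b, with permutation adjusted p-values from 9e-05 to 0.0224. Leaving out, for each pair, the 2 mice farthest from the median of its first-named gene gave 0.798, 0.781, 0.756 and 0.905. The mice left out were 23 and 40 for both pairs with Fga, 23 and 32 for Fgb and Fgg, and 23 and 27 for C8a and C8b. C8g, whose product joins C8a and C8b in the C8 protein, had an r of 0.0612 with C8a and 0.187 with C8b (permutation adjusted p = 0.825 and 0.566). C1ra and C1s1, the proteases of the C1 complex, had 0.409 (adjusted p = 0.234), and on log2(TPM + 1) an r of 0.572 (permutation adjusted p = 0.0549) and a rho of 0.679 (adjusted p = 0.0124), with an r of 0.678 (adjusted p = 0.00583) there without mouse 23. Mbl1 had 0.231 with Masp1 and 0.304 with Masp2 (adjusted p = 0.527 and 0.409). Over all 741 pairs of the 39 genes the median r was 0.39 and the 95th percentile 0.825, or 0.24 and 0.747 without mouse 23, in the same libraries. Without mouse 23, Fgb with Fgg (0.659) lay under that percentile and the other 3 pairs above it.

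Within each HFD group the highest C8a and C8b came from 1 mouse, and so did the lowest. Of the fishmeal mice, mouse 14 had the highest C8a (269 CPM) and the highest C8b (95.3 CPM), and mouse 20 the lowest of both (136 and 56.4 CPM). Of the salmon filet mice, mouse 27 had the lowest C8a (91.5 CPM) and the lowest C8b (36.9 CPM). Of the beef mice, mouse 40 had the highest of both (391 and 164 CPM).

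**Figure D5:**
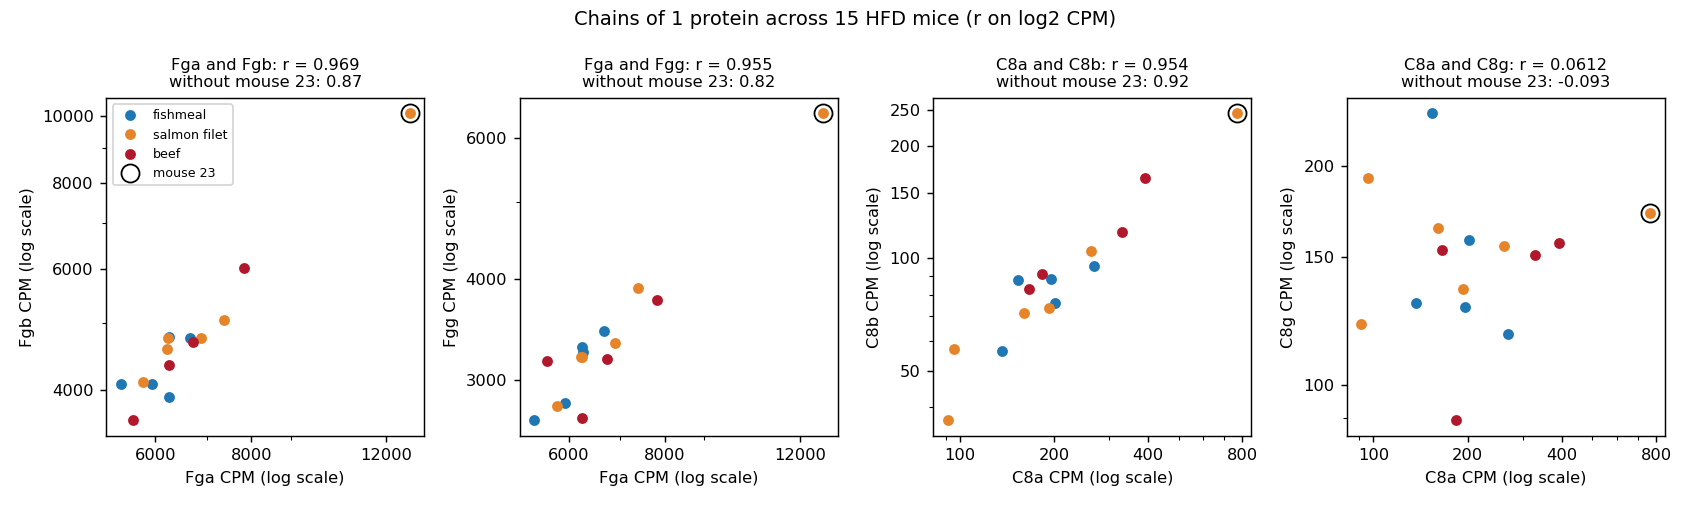
CPM of 1 chain against another in the 15 HFD mice on log axes, coloured by diet, with mouse 23 circled and Pearson r with and without it in each title. Fga with Fgb, Fga with Fgg and C8a with C8b line up (r 0.969, 0.955 and 0.954), and C8a with C8g does not (0.0612).

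Genes of the same systems that are not among the 39 were set beside them. Of 19 other coagulation genes tested in HFD versus chow, 2 were called, both higher, against 9.75% of all genes. F3, tissue factor, which starts clotting, rose by 0.49 on the log2 scale (SE 0.12, adjusted p = 0.0086) without overlap between groups, at 2.28 to 3.06 CPM in chow and 3.09 to 4.71 CPM in HFD mice; 1.58% of all genes had no overlap. Of 21 other complement genes tested, 1 was called, also against 9.75% of all genes: Cd55, a membrane inhibitor of C3 convertases, fell 1.84-fold (log2 fold change -0.88, SE 0.14, adjusted p = 0.000435), under the chow mean in 15 of 15 HFD mice.

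Of 11 acute phase genes 5 were called, all higher, against 9.75% of all genes, and the median log2 fold change was 0.54. Saa1 and Saa2 rose by 2.71 and 3.08 on the log2 scale, Lcn2 (lipocalin 2) by 2.94, Hp (haptoglobin) by 0.79 and Itih4 by 0.54, with edgeR adjusted p-values from 0.0217 to 0.0495. Without mouse 23, 5 were again called, with Saa1 at 1.77, Saa2 at 2.11, Lcn2 at 1.99, Hp at 0.66 and Itih4 at 0.45, and the median was 0.45. The values of these genes in mouse 23 were above every other HFD mouse, as they were for 10 of the 11 acute phase genes. The remaining genes of the 11 were not called, and without mouse 23 Orm1, Orm2 and Apcs had -0.15, -0.21 and -0.14. Among the 39 genes, the fibrinogen chains, C3 and C9 are acute phase genes as well and were not called. C4b was called higher, and Cfb was called by DESeq2 but not by edgeR.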

How the data were processed

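The authors used BBDuk for trimming, HISAT2 for mapping and featureCounts for counting. They deposited whole-number counts per Ensembl gene, without normalisation, and TPM. The submitters' processing notes list HISAT2 1.2.1 and featureCounts 1.4.6-p1. The settings for strand, read pairs and shared reads are not given in the sources used here. The paper prints a human build name for its mouse genome; positions are from GENCODE M21 (GRCm38), which held 55227 of the 55487 identifiers.

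Counts were compared with edgeR 4.0 in R 4.3: libraries were scaled by TMM, genes were kept by filterByExpr (minimum count 10), and two-sided quasi-likelihood tests were adjusted by Benjamini-Hochberg across every gene kept, with calls at 0.05. CPM used TMM over all 20 libraries. Groups came from the sample labels, with 1 library per animal. Klkb1 matched several identifiers and the one that GENCODE so names was used. The transferrin gene was not analysed here, and some genes of the related lists are not reported here. Similar transcripts were sought with blastn 2.17 (90% identity, 200 bases). Permutation tests were two-sided with 100000 resamples. Alternatives were DESeq2 1.42, DESeq2 size factors, all genes with at least 1 count, at least 10 counts in every sample, a fit on all 4 groups, limma 3.58 on log2(TPM + 1) or log2(TPM + 0.1) for genes averaging 0.5 TPM or more, mouse 31 as beef, the clock component as a covariate, and each mouse left out. The scripts were tested on simulated data. Named were all 39 genes by role, with full values for those called in any comparison with chow, the 3 highest and lowest by TPM in each list, and called genes of related lists. The genes and lists were chosen with earlier results of these data known.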

Additional observations from a re-analysis of the deposited data

Results flagged for a closer look

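In 17 of 156 combinations of a gene and a group, 1 mouse lay farther from the rest of its group than Dixon's 95% limit allows; chance gives about 1 in 20 groups. Of these, 12 were mouse 23, the highest of the salmon filet mice, with 12862 CPM for Fga, 10097 for Fgb, 4453 for Plg, 2929 for Kng1, 1249 for Serping1, 743 for F12, 343 for Cpb2 and 75.7 for Pros1, and with 2941 CPM for C4b, 1019.9 for Cfi, 380.3 for C1ra and 50.5 for Cfb. Fgg did not pass this limit, although mouse 23 was the highest mouse for it too. In this mouse the 11 acute phase genes summed to 27390 CPM, and the part of that in these values was not tested.

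The other 5 were spread over 4 mice. Mouse 1 was the lowest chow mouse for F10 (419.5 CPM) and mouse 7 for C8a (200.9 CPM). Mouse 32 was the lowest beef mouse for Proc (297 CPM) and C8g (89.3 CPM), and mouse 12 the highest fishmeal mouse for Serpinc1 (2645 CPM).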

How the results depend on the processing

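In HFD versus chow the 1 coagulation call became 0 with all genes of at least 1 count, with at least 10 counts in every sample, with limma on log2(TPM + 1) or log2(TPM + 0.1) and with the clock component as a covariate, and ranged from 0 to 2 when 1 mouse was left out. The 1 complement call became 3 with DESeq2 and with limma at either pseudocount, 0 with the clock component, and 0 to 4 when 1 mouse was left out. Of all genes, 1669 of 17120 were called by edgeR, 2161 of 17103 by DESeq2 and 291 of 17120 with the clock component. The count filters gave 1411 of 30862 (at least 1 count) and 1578 of 14199 (at least 10 in every sample). Limma called 1220 of 15088 genes on log2(TPM + 1) and 1139 of 15088 on log2(TPM + 0.1). In fishmeal versus chow the 1 complement call became 2 with DESeq2, 0 in the fit on all 4 groups and 1 to 2 without 1 mouse. There DESeq2 called 1175 of 16457 genes and the fit on all 4 groups 837 of 17360, against 556 of 16471 by edgeR. In salmon filet versus chow the 1 complement call became 2 with DESeq2 and with mouse 31 as beef, and 0 to 3 without 1 mouse. The coagulation count ranged from 0 to 1. Of all genes, DESeq2 called 1485 of 16576 and the fit with mouse 31 as beef 728 of 16475, against 740 of 16605 by edgeR. In beef versus chow DESeq2 called 1 coagulation and 1 complement gene, out of 1122 of 16531 genes. All genes of at least 1 count (480 of 28677 called) and the fit on all 4 groups (780 of 17360) called 1 complement gene. Both counts ranged from 0 to 1 without 1 mouse. The causes were not tested. Between HFD groups every alternative gave 0.

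For 28 of the log2 fold changes named above, 568 of 620 alternative values kept their direction and side of the threshold. The other named values were not part of this count. C8a changed direction in salmon filet versus chow without mouse 25 (0.0073) or mouse 27 (0.0105) and in beef versus chow without mouse 39 (0.0316). The r of C8a with C8g was -0.0836 on log2(TPM + 1) and -0.0927 without mouse 23, and that of Mbl1 with Masp2 was -0.0187 without it. Leaving out mouse 23 was chosen for the pairs and the acute phase genes after seeing the data. For the comparisons between diets every mouse was left out in turn, and the fit without mouse 23 was singled out after seeing the data. With limma on log2(TPM + 1), the genes called in HFD versus chow were 414 higher and 806 lower, against 777 and 892. All calls were 1669 by edgeR, 2161 by DESeq2 and 291 with the clock component. No paired analysis was possible because the labels give the groups no shared replicate numbers. Groups held 4 to 6 mice.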

Other observations

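Of 12 regulators of secreted liver genes, 2 were called in HFD versus chow by edgeR, both higher, against 9.75% of all genes. Ppara, a nuclear receptor for fatty acids, rose by 0.85 on the log2 scale (SE 0.24, adjusted p = 0.0288) and Cebpa, the liver factor C/EBPα, by 0.48 (SE 0.14, adjusted p = 0.0297). The IL-6 receptor gene Il6ra stood at 0.14 (SE 0.17, adjusted p = 0.664).

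Some markers of other cell types were also called in HFD versus chow. Of 4 B cell markers all 4 were called lower, with summed levels of 1.6 to 4.49 CPM against 4.56 to 11.1 CPM in chow mice. Of 6 T cell markers 3 were called lower, against 9.75% of all genes called. In direction, 5 of the T cell markers were lower and 1 higher. In each of 4 other lists 1 gene was called: Clec4g of 6 endothelial markers (-0.29, edgeR adjusted p = 0.00758) and Sox9 of 5 cholangiocyte markers (-0.61, adjusted p = 0.0301) were lower, and Alas2 of 5 red blood cell markers (0.71, adjusted p = 0.00602) and Cela1, the 1 exocrine pancreas marker tested (0.77, adjusted p = 0.0057), were higher. The pancreas markers Pnlip, Cpa1 and Prss2 did not pass the filter on low counts. Of the endothelial markers 5 were lower and 1 higher, and of the cholangiocyte markers 4 were lower and 1 higher. A call of 1 marker does not show that a cell type changed. None of 2 neutrophil, 5 hepatocyte, 6 Kupffer cell, 6 stellate cell or 3 platelet markers was called.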
